A study of Mus musculus with 18 samples.

Results

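The DNA replication machinery is described here through 45 mouse genes that encode it: the proteins that mark and license replication origins, the helicase that opens the double strand, the polymerases, the sliding clamp and its loader, the enzymes of the lagging strand, the suppliers of deoxynucleotides, the E cyclins and the proteins that protect the fork. The members were taken as a list of symbols. All 45 were found once among the 56748 gene IDs of the count table, and all 45 passed the filter on low counts that left 14985 genes for testing. The lowest count of a member in a library was 293 reads.

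In a cycling cell the origin recognition complex (Orc genes) with Cdc6 and Cdt1 loads the Mcm2 to Mcm7 helicase onto DNA before S phase. Cyclin E with its kinase and other factors then fires the origin, Cdc45 and the GINS complex join the helicase, primase and polymerase alpha lay down primers, and polymerases delta and epsilon copy the strands while held by the clamp PCNA. Most of these genes are known targets of E2F transcription factors and are transcribed as cells enter S phase, so their RNA in a culture is commonly used as a sign of proliferation. In RNA from whole cultures, a change in the share of cells in S phase and a change in RNA per cell cannot be told apart.

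The cells were RN2, a mouse acute myeloid leukemia line that carries MLL-AF9 and Nras G12D, with the genotype labelled WT. Lentivirus delivered 1 of 4 constructs: nCas9, the Cas9 nickase alone; intact BE, a cytosine base editor with the evolved APOBEC1 deaminase evoA1; the same editor with a catalytic mutation of the deaminase, named E63A in the count table and called the catalytic mutant here; and seBE, an editor whose activity is switched by a small molecule. The sort took place on day 5 after transduction. In the 24 h before it, intact BE and seBE cells were kept in 1 nM rapamycin or in vehicle, which gives 6 groups of 3 libraries. The labels of the nCas9 and catalytic mutant libraries also name vehicle, whereas the treatment protocol names only the 2 other constructs. The study asked whether gene expression points to mechanisms of base editor toxicity. Libraries of a group are labelled biological replicates without mention of separate transductions, so each p-value measures only the spread among these libraries, which may be technical.

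Library totals ran from 13835979 to 23284932 counts. All 8 myeloid leukemia markers were detected, with a summed level of 1678 to 2049 CPM per library, where CPM are counts scaled to a common library size. Of 6 lymphocyte markers, Cd3e and Ms4a1 were at 0 in all 18 libraries and the sum was 3.20 to 13.6 CPM, nearly all of it Nkg7. The 4 erythroid, 6 fibroblast or endothelial and 4 epithelial markers summed to at most 1.69 CPM per library. Replicate 2 of nCas9 stood apart on the second principal component (-62.98, against -21.5 to 24.5 elsewhere). On the first component replicate 3 of the catalytic mutant lay at 0.556 against -17.5 and -20.2 for its group. Replicate 3 of seBE with rapamycin lay at 19.98 against -1.45 and -8.11 for its group. Member counts that moved by over 1.5 times without the first 2 of these libraries are given with the results. The share of counts from mitochondrial genes was 1.88% ± 0.126 (SD, n = 3) for intact BE and 3.19% ± 0.797 for seBE with vehicle, 2.11% ± 0.132 and 3.58% ± 0.889 with rapamycin, 4.53% ± 0.879 for the catalytic mutant and 5.10% ± 0.585 for nCas9. Its part in the results was not tested.

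Promoters are shown first because E2F sites are the feature by which these genes are usually grouped. RefSeq promoter windows (GRCm38.p6, 250 bases before to 50 after a start site) matched 36 of the 45 members, with 42 windows. The E2F words TTTCCCGC, TTTCGCGC, TTTGCCGC and TTTGGCGC, searched on both strands and free to overlap each other, occurred in 14 of the 42 windows (33.3%) and in 744 of all 32851 windows (2.26%). The 14 members were Cdc6, Cdt1, Gins3, Lig1, Mcm3, Mcm5, Mcm6, Mcm7, Orc1, Pola1, Pold1, Pold3, Pole2 and Rfc3. CCAAT, the word bound by NF-Y, occurred in 24 of the 42 windows (57.1%, against 37.4% of all windows), and TTTGAA, the CHR word of genes expressed in mitosis, in 5 (11.9%, against 17.9%). The 250 bases before the start site follow for 4 members that rose in intact BE against nCas9, with the E2F words in capitals. Capitals that run past 8 letters are words overlapping on opposite strands.
Mcm5 promoter, chr8:75109259-75109508, plus strand: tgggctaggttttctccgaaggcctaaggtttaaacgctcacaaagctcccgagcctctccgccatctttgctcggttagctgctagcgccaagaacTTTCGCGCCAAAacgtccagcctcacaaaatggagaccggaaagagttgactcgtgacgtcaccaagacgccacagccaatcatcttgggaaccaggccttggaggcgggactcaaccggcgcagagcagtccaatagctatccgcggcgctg
Mcm6 promoter, chr1:128359706-128359955, minus strand: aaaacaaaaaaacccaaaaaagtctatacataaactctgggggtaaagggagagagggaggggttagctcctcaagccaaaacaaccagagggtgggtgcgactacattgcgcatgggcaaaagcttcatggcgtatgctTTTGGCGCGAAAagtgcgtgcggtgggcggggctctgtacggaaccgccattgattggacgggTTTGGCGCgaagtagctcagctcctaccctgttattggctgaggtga
Mcm7 promoter, chr5:138171884-138172133, minus strand: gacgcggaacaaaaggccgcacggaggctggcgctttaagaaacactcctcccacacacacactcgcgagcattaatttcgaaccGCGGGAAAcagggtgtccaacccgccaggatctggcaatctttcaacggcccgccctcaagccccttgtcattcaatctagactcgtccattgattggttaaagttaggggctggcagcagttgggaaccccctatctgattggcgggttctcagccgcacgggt
Pola1 promoter, chrX:93632156-93632405, minus strand: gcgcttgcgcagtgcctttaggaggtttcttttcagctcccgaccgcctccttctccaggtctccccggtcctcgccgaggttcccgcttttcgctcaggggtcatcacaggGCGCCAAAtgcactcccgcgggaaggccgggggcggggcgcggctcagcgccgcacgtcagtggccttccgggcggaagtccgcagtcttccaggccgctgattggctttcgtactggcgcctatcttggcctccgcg
Mcm6 holds 3 such words in this stretch, Mcm5 holds 2, and Mcm7 and Pola1 hold 1 each. Gins1, Gins2, Gins4, Ccne2, Pole, Prim2, Mcm4, Tipin and Rfc2 were not matched. Among the members with E2F words, Cdc6, Lig1 and Mcm3 rose as well and are not shown. Cdt1, Gins3, Orc1, Pold1, Pold3, Pole2 and Rfc3 hold such words and were not called higher. Cdc45, Fen1, Mcm2, Pcna, Rfc1, Rpa1, Rrm1 and Rrm2 rose with matched windows that hold none. Whether E2F words go with a rise was not tested. A match is a description of the letters, and no binding was measured.

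The members differed widely in abundance. Levels are CPM on edgeR's TMM-adjusted library sizes. Per kilobase of the longest annotated transcript and averaged over the 18 libraries, Pcna, the sliding clamp, was the most abundant member (259 CPM per kb), followed by Rrm2, the small subunit of ribonucleotide reductase (165). The helicase subunits came next, with Mcm6 at 145, Mcm7 at 125, Mcm3 at 108, Mcm5 at 100, Mcm2 at 86.0 and Mcm4 at 71.8 CPM per kb. Orc1 (7.75) and the GINS subunits Gins3 (9.37) and Gins2 (10.9) were the least abundant on this scale.

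The 45 genes together took 7460 ± 58.7 CPM (SD, n = 3) in intact BE with vehicle and 6662 ± 271 with rapamycin. The sum was 6865 ± 253 in seBE with vehicle and 6833 ± 332 with rapamycin, 6709 ± 241 in the catalytic mutant and 6347 ± 120 in nCas9. The sum was thus highest in intact BE with vehicle and lowest in nCas9. Of the 45 members, 21 had their highest group mean in intact BE with vehicle and none in intact BE with rapamycin, where 19 had their lowest mean. In nCas9, 20 members had their lowest mean and 10 their highest. An edgeR quasi-likelihood test of any difference among the 6 groups, with p-values adjusted by the Benjamini-Hochberg method over all genes tested and a threshold of 0.05, called 25 of the 45, against 31.4% of all genes. The ratio of the highest to the lowest group mean ran from 1.10 to 1.62 over the 45 (median 1.26), so every change below is smaller than a doubling.

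Intact BE with vehicle was set against nCas9, a separately delivered construct of the nickase alone. Most of the helicase subunits, the clamp, the ligase and the reductase subunits were higher in intact BE, and a subunit of the primase and one of the clamp loader were lower. Of the 45 members, 17 rose (13.1% of all genes tested rose) and 2 fell (9.83% of all genes fell). The median log2 fold change was 0.11 over the members and -0.04 over all genes. The 3 intact BE libraries lay wholly above nCas9 for 19 members (19.8% of all genes) and wholly below for 3 (18.2%). With the dependence on transcript length and GC content (the length and GC trend) removed, 19 members rose and 2 fell (14.1% and 8.01% of all genes). Of the 19 calls, 14 were kept in every one of the 27 other fits tried: Cdc6, Mcm2, Mcm3, Mcm4, Mcm5, Mcm6, Mcm7, Pola1, Prim1, Pcna, Rfc1, Lig1, Rrm1 and Ccne2. Log2 fold changes below are given with their standard error (SE).

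**Figure D1:**
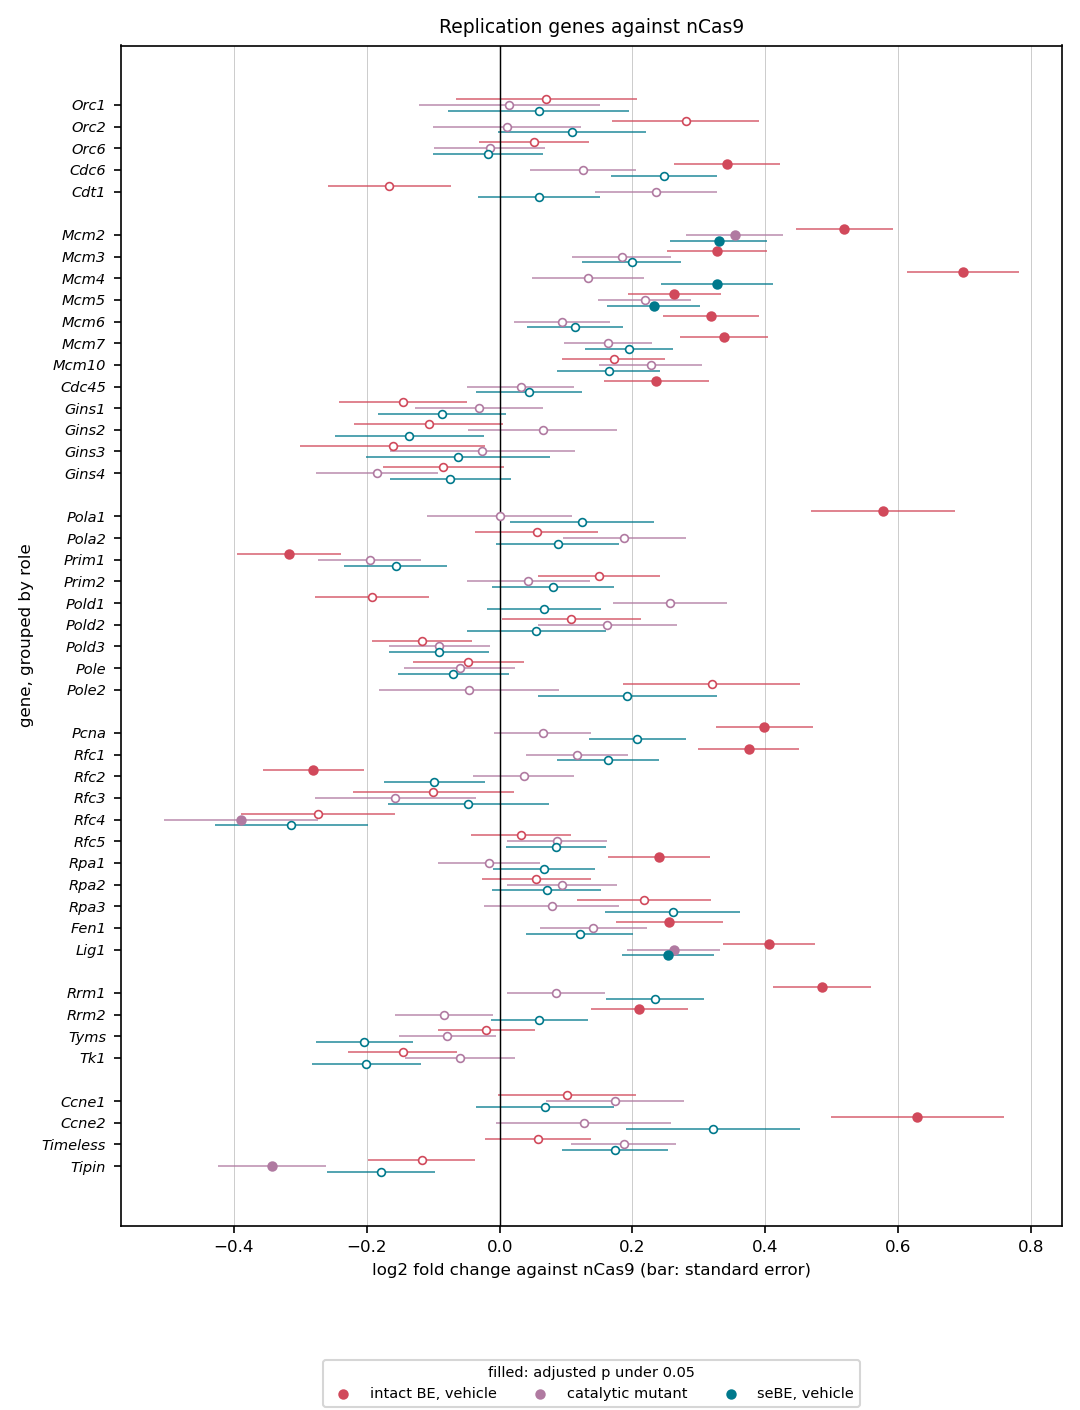
Log2 fold change (x axis) of the 45 replication genes (y axis, grouped by role) in intact BE with vehicle, the catalytic mutant and seBE with vehicle, each against the same 3 nCas9 libraries. Points are edgeR estimates, bars their standard errors, and filled points have an adjusted p under 0.05: 19 in intact BE, 4 in the catalytic mutant and 4 in seBE.

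Among the 5 origin genes 1 rose and none fell in intact BE against nCas9. Cdc6, which loads the helicase with the origin recognition complex, stood at 86.0, 90.7 and 90 CPM in nCas9, 96.1, 98.4 and 96.3 in the catalytic mutant, 115, 109 and 114 in intact BE with vehicle, 89.3, 96.0 and 103 with rapamycin, 106, 102 and 108 in seBE with vehicle, and 98.0, 98.9 and 119.9 with rapamycin. Its intact BE libraries with vehicle lay above all nCas9 and catalytic mutant libraries (log2 0.34 ± 0.08, adjusted p = 0.00173). Cdt1, its partner in loading, stood at 99.4, 90 and 98.2 CPM in nCas9, 111, 109 and 119 in the catalytic mutant, 78.7, 85.2 and 92.5 in intact BE with vehicle, 73.1, 78.3 and 70.7 with rapamycin, 95.3, 107 and 97.7 in seBE with vehicle, and 109, 84.9 and 79.5 with rapamycin. The catalytic mutant was highest here and intact BE with rapamycin lowest, while intact BE with vehicle overlapped nCas9 (log2 -0.17 ± 0.092, adjusted p = 0.208). The origin recognition subunits gave log2 fold changes of 0.07 (Orc1), 0.28 (Orc2) and 0.05 (Orc6) against nCas9, none past the threshold. Orc2 lay just outside it (adjusted p = 0.068), and Rrm2 was the called member closest to it (0.0335).

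All 6 subunits of the Mcm2 to Mcm7 helicase rose in intact BE, by 0.26 to 0.70 on the log2 scale. Mcm4 (ENSMUSG00000022673), an ATPase subunit of the ring, stood at 189, 187 and 219 CPM in nCas9, 216, 197 and 240.2 in the catalytic mutant, 341, 307 and 318 in intact BE with vehicle, 296, 271 and 301 with rapamycin, 263, 232 and 253 in seBE with vehicle, and 261, 242 and 304 with rapamycin. Each intact BE library with vehicle lay above every other library, and seBE lay between nCas9 and intact BE. The log2 fold change of Mcm4 against nCas9 was 0.70 ± 0.084, adjusted p = 1.06e-06, the smallest adjusted p among the members. Mcm2 (ENSMUSG00000002870), a subunit that also binds histones, stood at 232, 240.4 and 259 CPM in nCas9, 314, 288 and 332 in the catalytic mutant, 339, 347 and 363 in intact BE with vehicle, 288, 309 and 296 with rapamycin, 329, 289.6 and 301 in seBE with vehicle, and 316, 274 and 295 with rapamycin. Here the nCas9 libraries lay below all 15 others, and intact BE with vehicle above all 15 others (log2 0.52 ± 0.073, adjusted p = 5.38e-06).

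Mcm7 showed nCas9 as the low group too, with 326, 318 and 323 CPM in nCas9, 361, 352 and 371 in the catalytic mutant, 402, 409 and 413 in intact BE with vehicle, 376, 389 and 407 with rapamycin, 393, 342 and 372 in seBE with vehicle, and 376, 348 and 379 with rapamycin. Every nCas9 library lay below every other library, and the vehicle and rapamycin libraries of intact BE overlapped (log2 against nCas9 0.34 ± 0.066, adjusted p = 0.000289). Mcm6 stood at 549.6, 556 and 593 CPM in nCas9, 596, 565 and 652 in the catalytic mutant, 721, 691 and 705 in intact BE with vehicle, 658, 686 and 688 with rapamycin, 646, 558 and 634 in seBE with vehicle, and 601, 580.3 and 687 with rapamycin. All 6 intact BE libraries lay above nCas9, whereas seBE overlapped it (log2 for intact BE with vehicle 0.32 ± 0.072, adjusted p = 0.00139). Mcm3 stood at 312, 319 and 358 CPM in nCas9, 365, 349.7 and 409.6 in the catalytic mutant, 403, 413 and 426 in intact BE with vehicle, 358, 387 and 351 with rapamycin, 404, 344 and 387 in seBE with vehicle, and 373, 337 and 345 with rapamycin. In intact BE with vehicle no library overlapped nCas9, and the catalytic mutant spanned the gap between them (log2 0.33 ± 0.075, adjusted p = 0.00145). Mcm5 stood at 292, 292 and 322 CPM in nCas9, 356, 329.7 and 368 in the catalytic mutant, 358, 366 and 362 in intact BE with vehicle, 301, 326 and 319.5 with rapamycin, 369, 332 and 362 in seBE with vehicle, and 369, 322 and 340.3 with rapamycin. The intact BE libraries lay above nCas9 with vehicle and overlapped nCas9 with rapamycin (log2 0.26 ± 0.07, adjusted p = 0.0057).

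**Figure D2:**
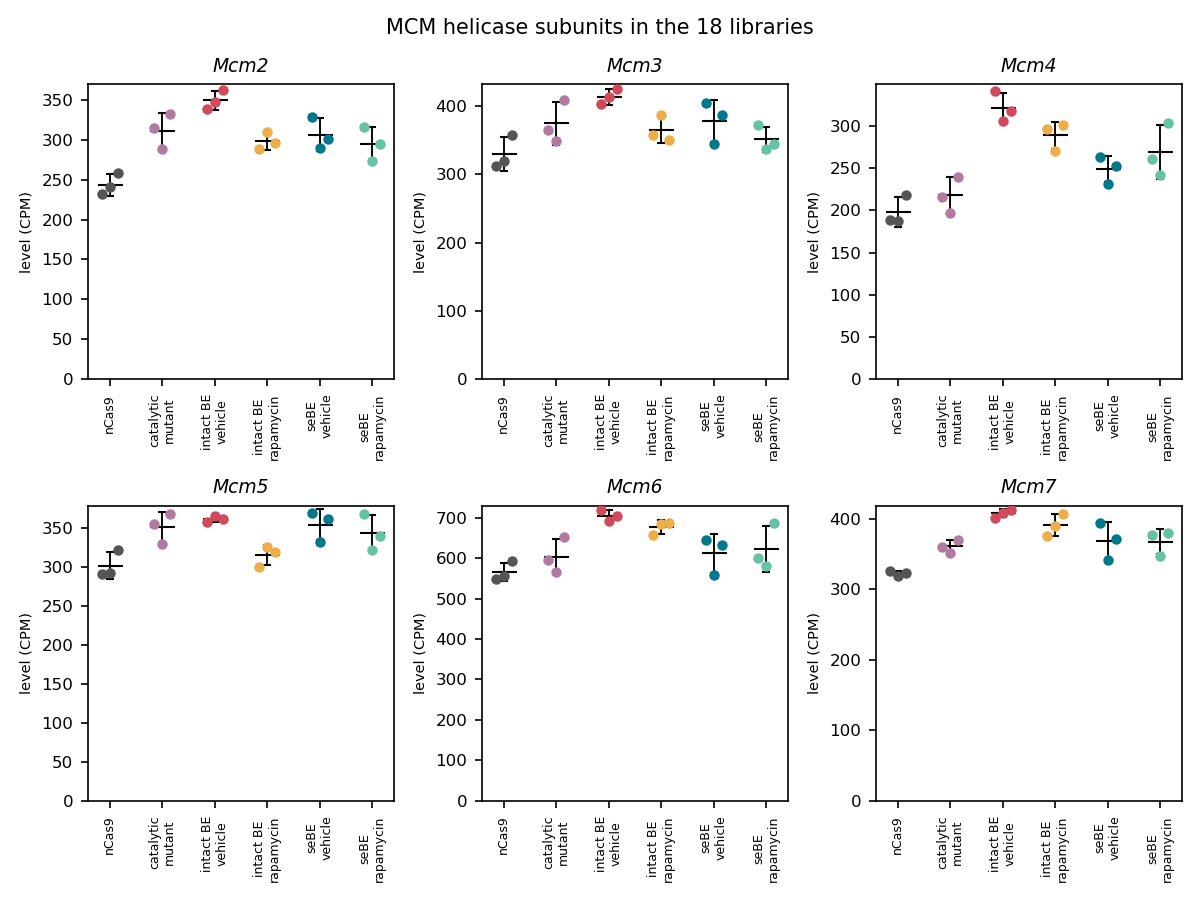
Levels in CPM (y axes, from 0) of the 6 helicase subunits in each of the 18 libraries (points) by group (x axes), with the group mean (dash) and SD (bar). Intact BE with vehicle has the highest mean and nCas9 the lowest for all 6 genes, and their libraries do not overlap.

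The summed level of Mcm2 to Mcm7 was 2561 ± 27.1 CPM (SD, n = 3) in intact BE with vehicle, 2337 ± 51.0 with rapamycin, 2221 ± 146 in the catalytic mutant and 1962 ± 96.4 in nCas9. In seBE it was 2270 ± 157 with vehicle and 2250 ± 130 with rapamycin.

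Of the 6 factors that join or activate the helicase, 1 passed. Cdc45 rose in intact BE against nCas9 (log2 0.24 ± 0.08, adjusted p = 0.0284), a call lost without replicate 2 of nCas9 (adjusted p = 0.121) and without replicate 2 (0.0846) or 3 (0.0629) of intact BE with vehicle. Mcm10, which helps to activate the helicase, gave 0.17 and did not pass. The GINS subunits gave log2 values of -0.15 (Gins1), -0.11 (Gins2), -0.16 (Gins3) and -0.08 (Gins4), none past the threshold, where the ring subunits were all positive. Gins1 stood at 58.1, 66.8 and 55.7 CPM in nCas9, 64.8, 57.0 and 54.9 in the catalytic mutant, 54.7, 55.8 and 52.7 in intact BE with vehicle, 40.1, 50.9 and 44.8 with rapamycin, 54.5, 59.0 and 56.3 in seBE with vehicle, and 53.0, 57.4 and 56.0 with rapamycin. Its intact BE libraries with rapamycin lay below all 15 others.

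Of the polymerase and primase genes 1 rose and 1 fell. Pola1 (ENSMUSG00000006678), the catalytic subunit of polymerase alpha, stood at 78.7, 79.3 and 80.3 CPM in nCas9, 71.0, 74.2 and 93.1 in the catalytic mutant, 129.8, 116 and 110.3 in intact BE with vehicle, 110.5, 109 and 122 with rapamycin, 84.6, 77.6 and 97.3 in seBE with vehicle, and 81.9, 86.3 and 115 with rapamycin. All 6 intact BE libraries lay above all nCas9, catalytic mutant and seBE vehicle libraries (log2 0.58 ± 0.11, adjusted p = 0.000219). Prim1, the catalytic subunit of the primase in the same complex, stood at 107, 108 and 99.7 CPM in nCas9, 94.8, 91.4 and 88.2 in the catalytic mutant, 88.1, 84.1 and 80.1 in intact BE with vehicle, 76.4, 80.8 and 84.0 with rapamycin, 89.2, 93.2 and 99.4 in seBE with vehicle, and 84.7, 94.2 and 96.0 with rapamycin. The order was the opposite one, with nCas9 above all 15 other libraries and both intact BE groups below the catalytic mutant (log2 -0.32 ± 0.078, adjusted p = 0.00285). The other subunits of the complex, Pola2 (log2 0.06) and Prim2 (0.15), did not pass.

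Pold1 (ENSMUSG00000038644), the catalytic subunit of polymerase delta, stood at 124, 119 and 121 CPM in nCas9, 140.1, 152 and 143 in the catalytic mutant, 97.5, 106 and 115 in intact BE with vehicle, 94.7, 103 and 90.6 with rapamycin, 123, 136 and 122 in seBE with vehicle, and 135, 116 and 102 with rapamycin. The catalytic mutant lay above all 15 other libraries, and intact BE with vehicle lay below nCas9 without passing the test (log2 -0.19 ± 0.086, adjusted p = 0.108). Pold2, an accessory subunit of the same enzyme, stood at 48.6, 47.8 and 51.9 CPM in nCas9, 54.5, 52.4 and 59.3 in the catalytic mutant, 45.9, 57.0 and 57.1 in intact BE with vehicle, 42.8, 40.8 and 37.7 with rapamycin, 54.6, 54.8 and 45.1 in seBE with vehicle, and 50.5, 40.8 and 44.7 with rapamycin. Intact BE with rapamycin was the low group, and its libraries lay below those with vehicle. In intact BE against nCas9 the log2 values were 0.11 for Pold2, -0.12 for Pold3, -0.05 for Pole, the catalytic subunit of polymerase epsilon, and 0.32 for its accessory subunit Pole2. None of the 4 passed in the main fit. With the length and GC trend removed, Pold2 (0.35, adjusted p = 0.00577) and Pole2 (0.38, adjusted p = 0.0209) did.

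Of the 11 genes of the clamp, its loader, single-strand binding and the lagging strand, 5 rose and 1 fell. Pcna, the clamp, stood at 352, 354 and 334 CPM in nCas9, 375, 333 and 379.7 in the catalytic mutant, 469.8, 467 and 435 in intact BE with vehicle, 379, 429 and 385 with rapamycin, 409, 374 and 418 in seBE with vehicle, and 383, 377 and 432 with rapamycin. The vehicle libraries of intact BE lay above all 15 other libraries (log2 against nCas9 0.40 ± 0.073, adjusted p = 0.000133). Lig1, the ligase that seals Okazaki fragments, stood at 150.3, 141 and 141 CPM in nCas9, 176, 166 and 178 in the catalytic mutant, 186, 197 and 191 in intact BE with vehicle, 159, 180 and 175 with rapamycin, 171, 170 and 176 in seBE with vehicle, and 170.4, 163 and 174 with rapamycin. Every nCas9 library lay below, and every intact BE library with vehicle above, all others (log2 0.41 ± 0.069, adjusted p = 5.84e-05). Fen1, the flap nuclease that acts before the ligase, gave log2 0.26 ± 0.08, adjusted p = 0.0189, a call lost without replicate 1 of nCas9 (adjusted p = 0.0673) or replicate 2 (0.0648) or 3 (0.0649) of intact BE with vehicle.

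Of the clamp loader subunits 1 rose and 1 fell. Rfc1, its large subunit, stood at 134, 131 and 126 CPM in nCas9, 129.6, 145 and 149.5 in the catalytic mutant, 175, 168 and 164 in intact BE with vehicle, 142, 166 and 159 with rapamycin, 149, 139 and 150.2 in seBE with vehicle, and 143, 139.9 and 159 with rapamycin. Its level with vehicle in intact BE lay above nCas9 and the catalytic mutant (log2 against nCas9 0.37 ± 0.076, adjusted p = 0.00046). Rfc2, a small subunit, stood at 185, 183 and 165 CPM in nCas9, 181, 178 and 188 in the catalytic mutant, 137, 148 and 154 in intact BE with vehicle, 134, 145 and 138 with rapamycin, 168, 172 and 158 in seBE with vehicle, and 165, 171 and 143 with rapamycin. All 6 intact BE libraries lay below all nCas9, catalytic mutant and seBE vehicle libraries (log2 -0.28 ± 0.076, adjusted p = 0.00644). This call was lost without replicate 1 of intact BE with vehicle (adjusted p = 0.0655), which leaves 1 member lower in place of 2. The other small subunits, Rfc3 (log2 -0.10), Rfc4 (-0.27) and Rfc5 (0.03), did not pass. Of the subunits of replication protein A, which coats single strands, Rpa1 rose (log2 0.24 ± 0.077, adjusted p = 0.0206), while Rpa2 (0.06) and Rpa3 (0.22) did not pass. Rpa1 lost its call with the length and GC trend removed (log2 0.13, adjusted p = 0.176) and without replicate 1 of nCas9 (0.0938) or replicate 1 (0.0668) or 3 (0.0604) of intact BE with vehicle. Rpa3, whose longest transcript has 682 nt, was called with the trend removed (0.63, 2.64e-05).

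Both subunits of ribonucleotide reductase, the enzyme that makes deoxynucleotides, rose. Rrm1 (ENSMUSG00000030978), the large subunit, stood at 405, 382 and 423 CPM in nCas9, 416, 408 and 459.8 in the catalytic mutant, 583, 561 and 549 in intact BE with vehicle, 443, 458 and 498 with rapamycin, 495, 446 and 482 in seBE with vehicle, and 459, 444 and 528 with rapamycin. All 3 vehicle libraries of intact BE lay above the 15 others (log2 against nCas9 0.49 ± 0.073, adjusted p = 1.39e-05). Rrm2 stood at 346, 370.4 and 353 CPM in nCas9, 340.3, 314 and 356 in the catalytic mutant, 420.5, 404 and 414 in intact BE with vehicle, 319.8, 321 and 337 with rapamycin, 381, 332 and 402 in seBE with vehicle, and 352, 356 and 404 with rapamycin. It was high in intact BE with vehicle, and its libraries with rapamycin lay below those of nCas9 (log2 for vehicle against nCas9 0.21 ± 0.073, adjusted p = 0.0335). This call of Rrm2 was lost without replicate 1 (adjusted p = 0.106) or 3 (0.0682) of nCas9 and without replicate 1 (0.0910), 2 (0.0517) or 3 (0.0701) of intact BE with vehicle. Tyms, thymidylate synthase (log2 -0.02), and Tk1, thymidine kinase (-0.15), did not pass.

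Of the E cyclins, Ccne2 rose. Ccne2 stood at 40.4, 35.4 and 41.2 CPM in nCas9, 42.6, 42.4 and 42.8 in the catalytic mutant, 67.2, 59.8 and 54.0 in intact BE with vehicle, 45.4, 46.9 and 64.5 with rapamycin, 47.6, 42.7 and 55.8 in seBE with vehicle, and 46.6, 47.9 and 65.6 with rapamycin. Intact BE with vehicle lay above nCas9 and the catalytic mutant and overlapped seBE (log2 against nCas9 0.63 ± 0.13, adjusted p = 0.000618). Ccne1 gave 0.10 and did not pass. Timeless, a fork protection factor, stood at 104, 100 and 98.9 CPM in nCas9, 119, 116 and 109 in the catalytic mutant, 94.0, 111 and 110.3 in intact BE with vehicle, 84.2, 97.3 and 90.7 with rapamycin, 109, 118 and 114 in seBE with vehicle, and 116, 104 and 109 with rapamycin. Its lowest group was intact BE with rapamycin, and its log2 value for intact BE with vehicle against nCas9 was 0.06. Tipin, its partner, gave -0.12, and neither passed.

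**Figure D3:**
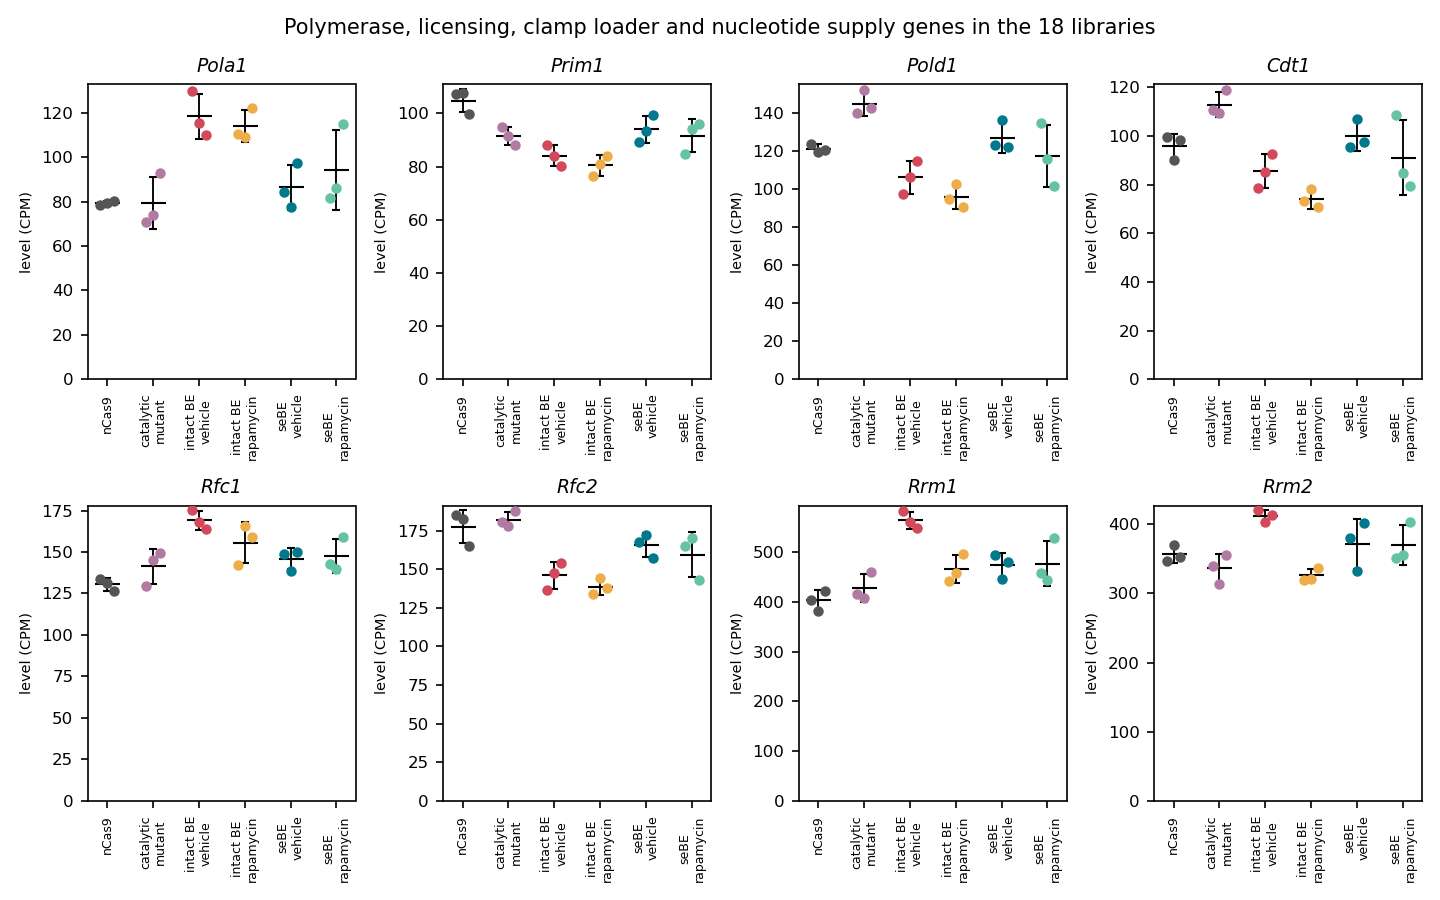
Levels in CPM (y axes, from 0) of 8 replication genes in each of the 18 libraries (points) by group (x axes), with the group mean (dash) and SD (bar). Pola1, Rfc1, Rrm1 and Rrm2 are higher in intact BE with vehicle than in nCas9, Prim1 and Rfc2 are lower, and Pold1 and Cdt1 are highest in the catalytic mutant.

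The catalytic mutant, the editor with a catalytic mutation of its deaminase, was set against the separately delivered nCas9. Few members differed. Mcm2 (log2 0.35 ± 0.073, adjusted p = 0.00428) and Lig1 (0.26 ± 0.07, adjusted p = 0.0236) rose, and Tipin (-0.34 ± 0.081, adjusted p = 0.0118) and the clamp loader subunit Rfc4 (-0.39 ± 0.12, adjusted p = 0.0473) fell. The 2 members that rose compare with 2.24% of all genes and the 2 that fell with 2.06%. The median was 0.07 over the members and 0.00 over all genes, and 11 members lay wholly above nCas9 (11.2% of all genes) and 3 wholly below (10.1%). Tipin stood at 183, 181 and 185 CPM in nCas9 and 154, 139.7 and 139 in the mutant, with no overlap. Rfc4 stood at 56.4, 84.2 and 68.1 CPM in nCas9 and 57.2, 51.9 and 50 in the mutant, with overlap. Its highest value was replicate 2 of nCas9, the library that stood apart.

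Each of the 4 calls was lost in some fit. Without replicate 2 of nCas9, Rfc4 (adjusted p = 0.355), Lig1 (0.107) and Tipin (0.0545) were lost, which left 1 member higher and 0 lower. Without replicate 3 of the mutant, 0 were lower (Rfc4 0.138, Tipin 0.0504). The same held without its replicate 2 (Rfc4 0.130, Tipin 0.0573), and 1 was higher and 1 lower without its replicate 1 (Lig1 0.0783, Rfc4 0.0610). Without both replicate 2 of nCas9 and replicate 3 of the mutant, none of the 4 was called, with Mcm2 at adjusted p = 0.098. With the length and GC trend removed, Tipin (log2 -0.13, adjusted p = 0.358) and Rfc4 (-0.18, 0.43) did not pass, nor did Lig1 (0.16, 0.228), and the count was 2 higher (0.741% of all genes) and 0 lower (0.734%). Mcm5 lay just outside the threshold in the main comparison (log2 0.22 ± 0.07, adjusted p = 0.0649).

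Intact BE with vehicle was set against the catalytic mutant, a separately delivered construct of the same editor with a catalytic mutation of the deaminase. Mcm4, Pola1, Rrm1, Rrm2 and Pcna were again higher in intact BE, and Pold1, Cdt1 and Rfc2 were lower. In all, 12 members rose (11.6% of all genes) and 3 fell (9.33%), with medians of 0.10 over the members and -0.03 over all genes. The intact BE libraries lay wholly above the mutant for 16 members (20.1% of all genes) and wholly below for 4 (17.7%). Of the ring subunits, 2 of 6 rose here, Mcm4 (log2 0.56 ± 0.084, adjusted p = 3.38e-05) and Mcm6 (0.22 ± 0.072, adjusted p = 0.024), and Mcm2 gave 0.17 and did not pass. Pola1 gave 0.58 ± 0.11, adjusted p = 0.000365, Rrm1 0.40 ± 0.073, adjusted p = 0.000252, Pcna 0.33 ± 0.073, adjusted p = 0.00122, Rrm2 0.29 ± 0.073, adjusted p = 0.00367 and Ccne2 0.50 ± 0.13, adjusted p = 0.00554. Rfc2 fell (-0.32 ± 0.076, adjusted p = 0.00275), as did Pold1 (-0.45 ± 0.086, adjusted p = 0.000374) and Cdt1 (-0.40 ± 0.092, adjusted p = 0.00186).

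Members of low GC content tended to be higher and members of high GC content lower in this comparison. Over the 45 members, Pearson's r between log2 fold change and GC content of the longest transcript was -0.60, as a description of genes that share libraries and base composition, and -0.05 with the trend removed. Other comparisons showed such a dependence too. The r was -0.72 for seBE against the catalytic mutant, -0.51 for rapamycin in seBE and 0.47 for the catalytic mutant against nCas9. With the trend removed these were -0.13, 0.06 and -0.32. In the remaining comparisons r ran from -0.25 to 0.39 before trend removal and from -0.32 to 0.07 after it. The -0.32 was that of seBE against nCas9, where r was -0.04 before, so the removal added a dependence there. Pold1 has a GC content of 61.0% and Cdt1 of 57.8%, against 41.5% for Pola1 and 35.0% for Ccne2. With the length and GC trend removed, Pold1 gave log2 -0.06 (adjusted p = 0.618) and Cdt1 -0.08 (0.588), so neither passed. Mcm4 (0.45, 7.09e-05), Pola1 (0.34, 0.00481) and Rfc2 (-0.32, 0.0017) kept their calls. Mcm7 (0.35, 0.000343), Lig1 (0.32, 0.0011), Mcm2 (0.26, 0.00656) and Mcm3 (0.27, 0.00679) passed in this fit. Cdc45 (0.25, 0.0195), Pold2 (0.31, 0.0289) and Fen1 (0.32, 0.00517) passed in it as well, and Prim1 fell (-0.25, 0.0145). The counts in this fit were 13 higher and 2 lower (8.19% and 4.14% of all genes). They hold the members just named that were not called in the main fit, where 12 were higher. Of those 12, Mcm4, Pola1, Pcna, Rrm1 and Rrm2 kept their calls, and most of the others did not.

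**Figure D4:**
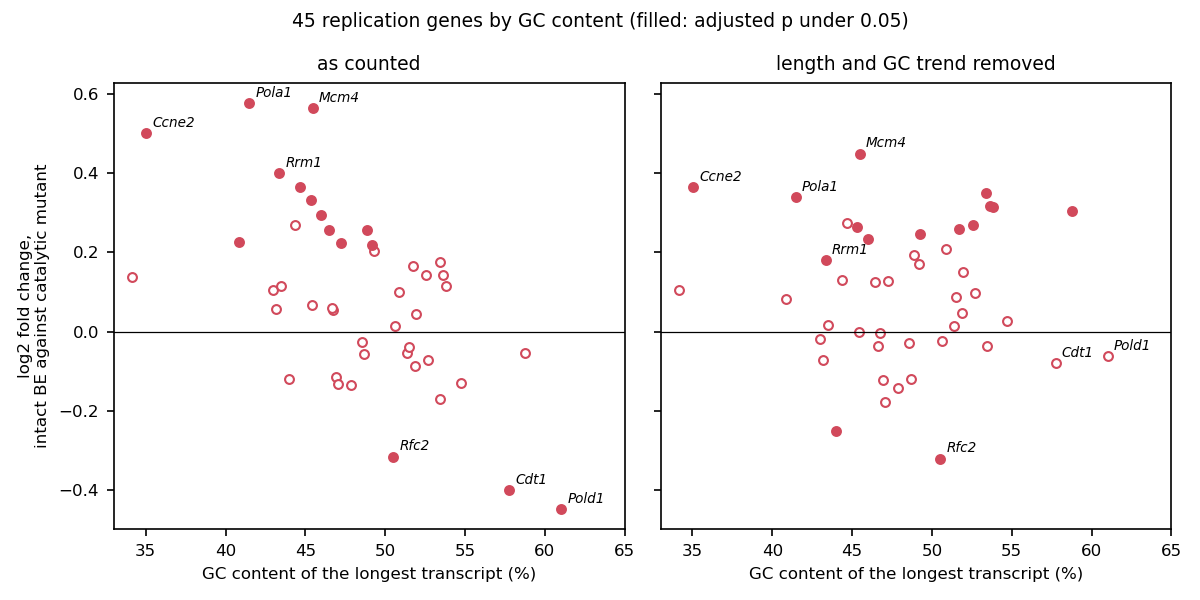
Log2 fold change of intact BE with vehicle against the catalytic mutant (y axis) by GC content of the longest transcript in percent (x axis) for the 45 genes, as counted (left) and with the length and GC trend removed (right). Filled points have an adjusted p under 0.05. Pold1 and Cdt1, at the high GC end, are filled on the left and open near 0 on the right, while Mcm4 and Pola1 are filled in both.

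Mcm4, Pola1, Pcna, Rfc2, Rrm1 and Rrm2 were kept in every other fit. The count of members higher fell from 12 to 5 without replicate 1 of intact BE with vehicle and to 7 without replicate 1 or replicate 2 of the catalytic mutant. Tipin (0.23 ± 0.081, adjusted p = 0.0442), Cdc6 (0.22 ± 0.08, adjusted p = 0.048) and Pole2 (0.37 ± 0.13, adjusted p = 0.0493) lay closest to the threshold, and Mcm7 just outside it (0.055).

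seBE with vehicle was compared with nCas9, the catalytic mutant and intact BE. Against nCas9, 4 members rose (2.64% of all genes) and 0 fell (1.93%): Mcm2 (log2 0.33 ± 0.073, adjusted p = 0.00693), Mcm4 (0.33 ± 0.084, adjusted p = 0.0201), Lig1 (0.25 ± 0.069, adjusted p = 0.0294) and Mcm5 (0.23 ± 0.07, adjusted p = 0.0483). The median was 0.07 over the members and -0.01 over all genes, and 15 members lay wholly above nCas9 (11.8% of all genes) and 5 wholly below (10.7%). Beside the 0 lower by edgeR stands 1 by DESeq2, Tyms, and 18 members had an unadjusted p under 0.05 in either direction (18.3% of all genes). The count of members higher was 0 without replicate 1 of seBE, 7 without its replicate 2, 1 without its replicate 3, 2 and 1 without replicates 1 and 2 of nCas9, and 1 without replicate 2 of nCas9 and replicate 3 of the catalytic mutant. With the length and GC trend removed, 8 rose (3.43% of all genes) and 1 fell, Tyms (2.09%). In that fit r with GC content over the 45 members was -0.32, against -0.04 before the removal. Mcm2 was lost in a single other fit, without replicate 1 of seBE (adjusted p = 0.0837).

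Against intact BE with vehicle, Mcm4 (log2 -0.37 ± 0.084, adjusted p = 0.012), Pola1 (-0.45 ± 0.11, adjusted p = 0.0176) and Rrm1 (-0.25 ± 0.073, adjusted p = 0.0436) were lower in seBE, 3 members against 2.32% of all genes, and 0 were higher against 1.68%. By DESeq2 1 was higher, Pold1, and 18 members had an unadjusted p under 0.05 in either direction (18.6% of all genes). The seBE libraries lay wholly below intact BE for 15 members (15% of all genes) and wholly above for 4 (14.4%). The 3 calls were lost without replicate 1 of intact BE (adjusted p = 0.111, 0.158 and 0.244) and without replicate 2 of seBE (0.132, 0.192 and 0.313), and without replicate 1 of seBE only Mcm4 was called. With the length and GC trend removed, 4 were lower (1.55% of all genes) and 0 higher (0.781%), and Rrm1 did not pass (-0.12, adjusted p = 0.356). Pold1 lay just outside the threshold on the higher side (0.26 ± 0.086, adjusted p = 0.0766).

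Against the catalytic mutant, edgeR called 0 members in either direction (0% and 0.0267% of all genes), and DESeq2 also called 0, as did edgeR with the length and GC trend removed (0.0133% and 0.0467% of all genes). The seBE libraries lay wholly above the mutant for 2 members (8.02% of all genes) and wholly below for 4 (7.17%). At an unadjusted p under 0.05 there were 3, Mcm4, Pold1 and Rrm1, against 8.7% of all genes. The 95% interval of the log2 difference was 0.02 to 0.37 for Mcm4, 0.00 to 0.30 for Rrm1 and -0.36 to -0.01 for Pold1, so differences of these sizes were not excluded by the data. Fold changes in this comparison fell with GC content (r = -0.72 over the 45 members, -0.13 with the trend removed), and Pold1 lies at the high GC end.

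Rapamycin, the switch of seBE and an inhibitor of the kinase complex mTORC1, was compared with vehicle within each editor. In intact BE the subunits of ribonucleotide reductase and a polymerase delta subunit fell with the drug. The log2 fold change was negative for 43 of the 45 members, with a median of -0.16 against 0.00 over all genes. The libraries with rapamycin lay wholly below those with vehicle for 20 members (11.8% of all genes) and wholly above for 0 (10.5%). At the threshold 3 fell (1.34% of all genes) and 0 rose (1.98%). By DESeq2, for which the share of all genes was not counted, 6 fell and 0 rose. By edgeR, 20 members had an unadjusted p under 0.05 in either direction (14.4% of all genes). Removing the length and GC trend gave 7 lower (2.33% of all genes) and 0 higher (2.5%). The summed level of the 45 genes went from 7460 ± 58.7 to 6662 ± 271 CPM (SD, n = 3).

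Rrm2 fell from 413 ± 8.55 to 326 ± 9.66 CPM (SD, n = 3; log2 -0.34 ± 0.073, adjusted p = 0.0043), with no overlap, and was called in every other fit. Its partner Rrm1 fell too (log2 -0.28 ± 0.073, adjusted p = 0.0251), as did the polymerase delta subunit Pold2 (-0.40 ± 0.10, adjusted p = 0.0235). Leaving out replicate 2 or 3 of intact BE with vehicle left 1 member called, since Pold2 (adjusted p = 0.166 and 0.162) and Rrm1 (0.0945 and 0.0588) were lost, and leaving out replicate 1 of seBE with rapamycin, which is not in the comparison, gave 5. Just outside the threshold lay Cdc45 (-0.26 ± 0.08, adjusted p = 0.0585), Mcm2 (-0.23 ± 0.072, adjusted p = 0.0756) and Tyms (-0.22 ± 0.073, adjusted p = 0.0942), and the first of these passed without replicate 2 of nCas9 and replicate 3 of the catalytic mutant (0.0479). Tyms stood at 100.3, 101 and 102 CPM with vehicle and 85.1, 88.4 and 86.9 with rapamycin in intact BE, with no overlap. By role, the median log2 value was -0.25 for nucleotide supply, -0.21 for origin genes, -0.16 for the clamp, loader and lagging strand, -0.14 for cyclins E and fork protection, -0.12 for the helicase and -0.11 for the polymerases.

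In seBE at the same dose no member passed. The median log2 value was -0.01, 25 of the 45 were negative, and the groups overlapped for all 45 members (3.64% and 4.42% of all genes lay wholly above and below). edgeR called 0 members and 0 of all genes (0%), DESeq2 called 0 members, and 0 members had an unadjusted p under 0.05, against 3.29% of all genes. The estimates ran from -0.18 (Pold2) to 0.15 (Gins2). For Rrm2 the 95% interval was -0.15 to 0.14, for Rrm1 -0.14 to 0.16 and for Pold2 -0.39 to 0.03, and over the 45 members the intervals reached from -0.39 to 0.39. Replicate 3 of seBE with rapamycin was the highest of its group for Mcm4, Pola1, Rrm1, Rrm2 and Ccne2 and the lowest for Cdt1, Pold1 and Rfc2.

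**Figure D5:**
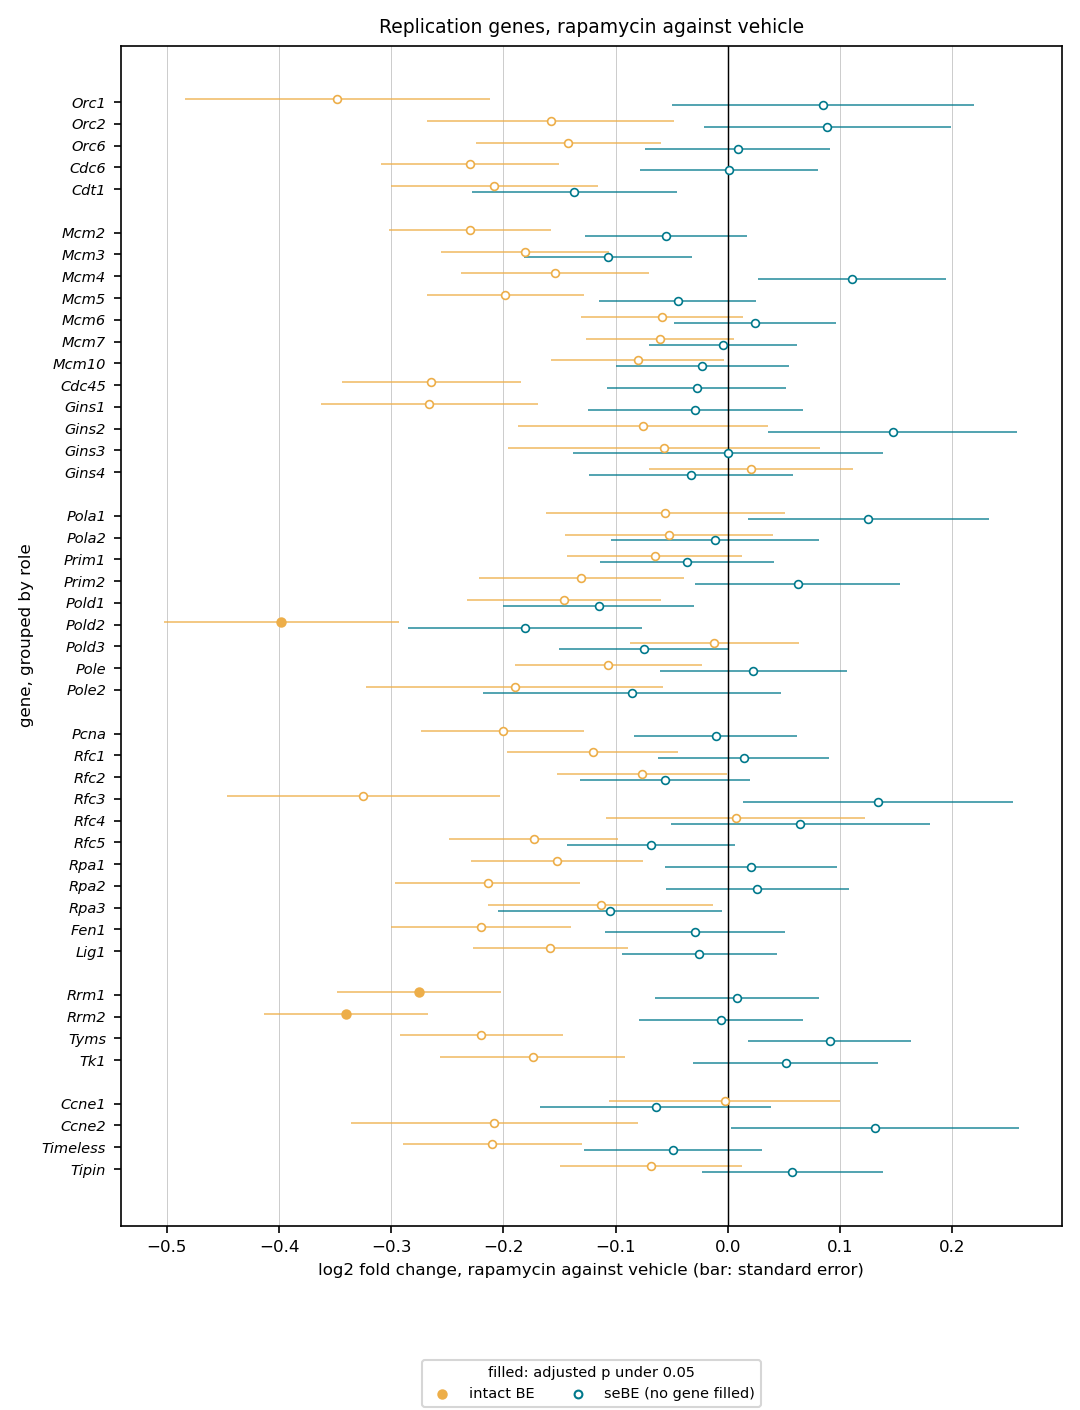
Log2 fold change of rapamycin against vehicle (x axis) for the 45 replication genes (y axis, grouped by role) in intact BE and in seBE. Points are edgeR estimates, bars their standard errors, and filled points have an adjusted p under 0.05: Rrm1, Rrm2 and Pold2 in intact BE and none in seBE. Of the intact BE points 43 lie left of 0, and of the seBE points 25.

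The difference between the drug effects was tested as the effect in seBE minus the effect in intact BE. Its sign was positive for 42 of the 45 members and its median was 0.15, against 0.01 over all genes. edgeR called 0 members higher or lower (0.0734% and 0.113% of all genes), and DESeq2 called 0, as did edgeR with the length and GC trend removed (0.167% and 0.194% of all genes). At an unadjusted p under 0.05 there were 9 members, against 6.97% of all genes. The smallest adjusted p was that of Rrm2 (log2 0.33 ± 0.10, adjusted p = 0.283, 95% interval 0.12 to 0.54), followed by Tyms (0.31 ± 0.10, adjusted p = 0.349), Rrm1 (0.28 ± 0.10, adjusted p = 0.442), Rfc3 (0.46 ± 0.17, adjusted p = 0.468) and Orc1 (0.43 ± 0.19, adjusted p = 0.623).

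Under rapamycin, seBE had higher levels than intact BE of Rfc3 (log2 0.51 ± 0.12, adjusted p = 0.00948), Timeless (0.28 ± 0.079, adjusted p = 0.0345) and Pold1 (0.29 ± 0.086, adjusted p = 0.0415). These 3 compare with 2.04% of all genes, and 0 members were lower (2.66% of all genes). DESeq2 also called 0 lower, and 13 members had an unadjusted p under 0.05 in either direction (18.8% of all genes). The median was 0.07 over the members and 0.01 over all genes, and 10 members lay wholly higher (9.54% of all genes) and 0 wholly lower (10%). Rfc3 stood at 28.6, 29.7 and 36.7 CPM in intact BE and 37.3, 47.9 and 50.1 in seBE with rapamycin, with no overlap. Timeless did not overlap either, and Pold1 overlapped. The count of members higher was 0 without replicate 1 of intact BE with rapamycin, 1 without its replicate 3, 1 without replicate 1 or 2 of seBE with rapamycin and 6 without its replicate 3, which also put 1 lower. It was 4 with the length and GC trend removed (1.82% of all genes), with 0 lower (2.9%). Those 4 include Orc1 (log2 0.44, adjusted p = 0.0494) and Rfc2 (0.24, 0.0334), so not all of the 3 calls above were kept in that fit. Without replicate 2 or 3 of nCas9, which are not in the comparison, 5 members were higher, and 6 without replicate 2 of nCas9 and replicate 3 of the catalytic mutant together. Cdt1 lay just outside the threshold (0.30 ± 0.092, adjusted p = 0.0534).

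Other genes of replication, from 4 further lists whose 58 genes were all tested, moved in both directions. For intact BE against nCas9, where 13.1% of all genes rose and 9.83% fell, 3 of 16 genes of origin firing and licensing control rose and 2 fell. Rif1, which restrains origin firing, gave log2 0.56 ± 0.10, adjusted p = 0.000191, and Recql4, a helicase used in origin firing, gave -0.58 ± 0.14, adjusted p = 0.00213. Of 18 polymerase, fork and lagging strand genes 6 rose and 3 fell, with Top2a, topoisomerase II, at 0.51 ± 0.08, adjusted p = 2.13e-05 and Pold4, the small polymerase delta subunit, at -0.52 ± 0.12, adjusted p = 0.00242, a call lost with the length and GC trend removed (-0.18, 0.271). Of 11 chromatin assembly genes 4 rose and 1 fell, with Supt16, a subunit of the histone chaperone FACT, at 0.52 ± 0.081, adjusted p = 1.87e-05 and Dnmt1, the maintenance methyltransferase, at 0.41 ± 0.073, adjusted p = 9.9e-05. Of 13 further nucleotide supply genes 4 rose and 2 fell, with Cad, the enzyme that starts pyrimidine synthesis, at 0.64 ± 0.083, adjusted p = 1.85e-06 and Dck, deoxycytidine kinase, at 0.66 ± 0.12, adjusted p = 0.000111. The chromatin assembly count was 6 higher and 1 lower, and that of polymerase, fork and lagging strand genes 5 and 2, with the trend removed (14.1% and 8.01% of all genes).

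The same lists gave 3 higher and 1 lower of 16, 4 and 4 of 18, 4 and 2 of 11, and 1 and 0 of 13 for intact BE against the catalytic mutant (11.6% and 9.33% of all genes), where Recql4 gave -0.73 ± 0.14, adjusted p = 0.000329 and Rif1 0.67 ± 0.10, adjusted p = 6.16e-05. Removing the trend left the first list at 3 and 1 and gave 2 and 2 of 18, 6 and 1 of 11, and 3 and 0 of 13 (8.19% and 4.14% of all genes). Cad rose in the catalytic mutant (log2 0.51 ± 0.083, adjusted p = 0.000706) and in seBE (0.46 ± 0.083, adjusted p = 0.00142) against the shared nCas9 libraries, as did Dnmt1 (0.29 ± 0.073, adjusted p = 0.0197 and 0.28 ± 0.073, adjusted p = 0.0234) and Uhrf1, which recruits it (0.27 ± 0.075, adjusted p = 0.0343 and 0.30 ± 0.075, adjusted p = 0.019). In the catalytic mutant neither Dnmt1 (0.15, adjusted p = 0.261) nor Uhrf1 (0.16, 0.3) passed with the trend removed, while both did in seBE (0.0436 and 0.019). With rapamycin in intact BE, Mtbp, an origin firing factor (-0.37 ± 0.094, adjusted p = 0.0192), Gmnn, the inhibitor of Cdt1 (-0.31 ± 0.086, adjusted p = 0.0303), and Dut, which removes dUTP (-0.28 ± 0.079, adjusted p = 0.0369), fell (1.34% of all genes fell), and no other gene of the 4 lists passed. With the trend removed, 3, 1, 2 and 3 genes of the lists were lower in the order above (2.33% of all genes) and none was higher, the added ones being Cdc7, Atad5, Asf1b, Hells, Dck and Cad. Under rapamycin Cdc7, the kinase that activates the helicase (0.53 ± 0.12, adjusted p = 0.00467), and Recql4 (0.60 ± 0.14, adjusted p = 0.00754) were higher in seBE than in intact BE. They were 2 of 16 genes in the first list, and no gene of the other lists passed, where 2.04% of all genes were higher and 2.66% lower.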

How the data were processed

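The authors deposited raw read counts per gene. Per the submitters' processing notes, the tools included fastp 1.0.1, STAR 2.7.1a, SAMtools 1.9, featureCounts of Subread 2.0.3 and DESeq2, with GRCm39. Per the labels' protocols, libraries were polyA-selected and directional. Annotation release, strand setting and treatment of multi-mapping reads are not given in the sources used. It is therefore not known whether reads of overlapping antisense genes were told apart. All 18 libraries entered 1 fit of 6 group means (R 4.3.3, edgeR 4.0.16: filterByExpr, TMM, robust quasi-likelihood F tests, 10 contrasts), with Benjamini-Hochberg adjustment over 14985 genes and a threshold of 0.05. SE is the log2 fold change divided by the square root of F. The common dispersion of 0.0176 gives a coefficient of variation of 13.3% between libraries. Transcript length and GC content, known for all 45 members and 97.4% of tested genes, came from GENCODE on GRCm38, an older build. Their trend was fitted in each library by a natural spline (4 degrees of freedom) over genes with log2 CPM of at least 3.

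Alternatives were DESeq2 1.42.0, RLE scaling, no filter, a minimum of 1 CPM in 3 libraries, a fit on only the libraries compared, a replicate block, trend removal, both together, and leaving out each library. Leaving out replicate 2 of nCas9 with replicate 3 of the catalytic mutant was added after seeing the data. Shares of all genes were counted only for the main fit and for trend removal alone. Member counts from DESeq2, the replicate block and the other fits therefore cannot be read against all genes. The members, their roles and the lists were chosen with earlier results of these data known. Values in every library were given for the 20 members with the smallest p in the test of any difference and for Mcm2 to Mcm7. Up to 10 members per comparison, in order of adjusted p, were given with statistics, and up to 4 of each other list.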

Additional observations from a re-analysis of the deposited data

How the results depend on the processing

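Of 51 calls of a member in a comparison, 21 were kept in all 27 other fits, 24 in all 18 fits without a library and 31 in the 9 other settings, and none reversed. For intact BE against nCas9 14 of 19 calls were kept, against the catalytic mutant 6 of 15, and for rapamycin in intact BE 1 of 3, and no call of the other comparisons was kept in every fit. Counts of members that moved by over 1.5 times follow as higher or lower members. The catalytic mutant against nCas9 gave 5 higher by DESeq2 and 1 in the fit of the compared libraries, and 1 lower by RLE scaling and in the compared libraries. It gave 0 lower with the length and GC trend removed and 0 of either without replicate 2 of nCas9 and replicate 3 of the mutant. seBE against nCas9 gave 8 higher and 1 lower both by DESeq2 and with the trend removed, and 1 higher without those 2 libraries. seBE against intact BE gave 1 higher by DESeq2 and with no filter, and 2 higher and 6 lower in the compared libraries. Intact BE against the mutant moved by less than 1.5 times, from 12 to 9 higher. It gave 9 by RLE scaling, with the minimum of 1 CPM in 3 libraries and without those 2 libraries. Rapamycin in intact BE gave 6 lower by DESeq2, 5 in the compared libraries and 7 with the trend removed. seBE against intact BE under rapamycin gave 7 higher by DESeq2, 1 in the compared libraries and 6 without the 2 libraries.

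Leaving out 1 library at a time, the counts higher and lower ran from 14 to 18 and 1 to 3 for intact BE against nCas9, 1 to 4 and 0 to 2 for the catalytic mutant against nCas9, 5 to 13 and 3 to 3 for intact BE against the mutant, 0 to 7 and 0 to 1 for seBE against nCas9, 0 to 1 and 0 to 3 for seBE against intact BE, 0 to 0 and 1 to 5 for rapamycin in intact BE, and 0 to 6 and 0 to 1 for seBE against intact BE under rapamycin. The test of any difference called 20 to 26 members without a library and 22 to 26 in the other settings. Apart from the fits with fewer libraries, the cause of these shifts was not tested.

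The replicate numbers were not taken to pair the libraries, since not every same-numbered pair correlated above 0.1. Same-numbered libraries of different groups had correlated deviations of -0.07 to 0.11 (median 0.02, 1 of 45 pairs over 0.1). Other pairs ran from -0.09 to 0.06 (median -0.01). Of the 18 libraries, 13 correlated best with their own number, a hint of pairing from the data and not from the design. With a replicate block, the catalytic mutant against nCas9 gave 3 higher, seBE against nCas9 7 higher, seBE against intact BE 1 higher, rapamycin in intact BE 5 lower, and seBE against intact BE under rapamycin 7 higher and 1 lower. With the block and trend removal these were 4 higher, 10 higher and 1 lower, 2 higher and 9 lower, 13 lower, and 7 higher. In that fit Rrm2 alone passed in the difference between drug effects (log2 0.31, adjusted p = 0.0186). With 3 libraries a group and a coefficient of variation of 13.3%, a member that missed the threshold is not shown to be unchanged.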

Other observations

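Genes of mitosis and of the E2F and RB family, which are read in the same cells, were counted beside the replication genes. Of 30 mitosis genes, 14 rose and none fell in intact BE with vehicle against nCas9 (13.1% and 9.83% of all genes), with a median log2 fold change of 0.18. Tpx2, a spindle assembly factor (log2 0.43 ± 0.077, adjusted p = 9.78e-05), Kif11, the spindle motor (0.44 ± 0.083, adjusted p = 0.00018), Kif20a, a motor of cytokinesis (0.42 ± 0.079, adjusted p = 0.000197), and Prc1, a bundler of spindle microtubules (0.44 ± 0.085, adjusted p = 0.00023), led by adjusted p. With the length and GC trend removed 12 rose and 1 fell (14.1% and 8.01% of all genes). Against the catalytic mutant 12 of the 30 rose and none fell, against 11.6% and 9.33% of all genes, and with the trend removed 8 rose and none fell, against 8.19% and 4.14%. By the same test rapamycin in intact BE moved none of the 30 past the threshold (median -0.05), where 1.98% of all genes rose and 1.34% fell. At these shares, none of 30 is not shown to differ from all genes. Of the replication members 3 fell.

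Of 13 genes of the E2F and RB family, 6 rose and none fell in intact BE with vehicle against nCas9 (13.1% and 9.83% of all genes). They were E2f8 (log2 0.59 ± 0.087, adjusted p = 1.07e-05) and E2f7 (0.44 ± 0.13, adjusted p = 0.013), the repressor E2Fs that are themselves S phase genes, Rbl1, a pocket protein (0.40 ± 0.082, adjusted p = 0.000498), the E2F partners Tfdp2 (0.52 ± 0.12, adjusted p = 0.00174) and Tfdp1 (0.26 ± 0.061, adjusted p = 0.00186), and E2f3 (0.29 ± 0.097, adjusted p = 0.0247). With the trend removed the count was again 6 and 0 (14.1% and 8.01% of all genes), but E2f7 (adjusted p = 0.0511) and E2f3 (0.13) did not pass, and E2f4 (0.000305) and E2f6 (0.0361) did. Against the catalytic mutant 5 rose, among them Rb1 (0.47 ± 0.11, adjusted p = 0.00171), and E2f2 fell (-0.36 ± 0.12, adjusted p = 0.0264), where 11.6% of all genes rose and 9.33% fell. With the trend removed 3 rose, Rb1 among them (adjusted p = 0.0436), and none fell (8.19% and 4.14% of all genes), with E2f2 at -0.14 (adjusted p = 0.496). With rapamycin in intact BE none of the 13 passed (1.98% of all genes rose and 1.34% fell). Under rapamycin Tfdp2 (-0.43 ± 0.12, adjusted p = 0.0267) and Rb1 (-0.35 ± 0.10, adjusted p = 0.042) were lower in seBE than in intact BE (2.66% of all genes), and Tfdp2 did not pass with the trend removed (adjusted p = 0.0841).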
